A study of Homo sapiens with 6 samples.

Results

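The genes of lipid export and transport were examined in RNA-seq libraries of U251, a human glioblastoma cell line. A set of 36 genes was taken by gene name from the expression table of 58735 genes, and all 36 names were found. They fall into 8 ATP-driven pumps of sterols and phospholipids, 4 carriers of conjugates and eicosanoids, 8 apolipoproteins and factors that assemble or remodel lipoproteins, 2 lipoprotein receptors, 10 proteins that transfer sterol inside the cell, and 4 proteins of fatty acid and lysolipid uptake. The control group (NC, n = 3) received sterile deionized water and the TNF-α group (n = 3) received recombinant human tumor necrosis factor-α, an inflammatory cytokine, at 10 ng/mL. Both groups were harvested after 24 h, and per the labels the 3 replicates of a group were independent biological replicates. The comparison addressed whether the cytokine altered the expression of genes by which the cells take up, move and release lipids. U251 is a single tumor line grown alone in serum-containing medium, so no other brain cell was present to supply or receive lipid.

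Cells release cholesterol and phospholipid through pumps such as ABCA1 and ABCG1, which load it onto apolipoproteins outside the cell. Cholesterol that enters in lipoproteins leaves the lysosome through NPC2 and NPC1 and is passed between membranes by START-domain, oxysterol-binding and GRAM-domain proteins. In brain, astrocytes are a main source of apolipoprotein E particles, and the pumps that load them are known targets of the liver X receptors, which sense oxysterols.

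Each library held between 31992167 and 37897044 reads in genes. TNF-α replicates 2 and 3 stood apart from the other 4 libraries. Their share of reads from genes with over 8 kb of merged exons (the gene length used for FPKM) was 16.6% and 17.9%, while the other 4 had 28.8% to 29.1%, and ribosomal protein genes held 7.30% and 6.26%, against 2.62% to 2.90%. The response to the cytokine was present in all 3 TNF-α libraries: CCL2, a chemokine gene, was at an FPKM of 1.94 to 2.12 in the NC group and 81.7 to 151 in the TNF-α group (log2 fold change 5.33, adjusted p = 0.000833), and NFKBIA and TNFAIP3, inhibitors of NF-kB signalling, were higher by 2.79 (adjusted p = 0.00415) and 2.70 (adjusted p = 0.0421) on the log2 scale. Of 8 glioma and astrocyte markers, 6 reached an FPKM of 1 in 3 or more libraries, while S100B stayed below 1 and AQP4 was at 0 in all 6. None of the endothelial, oligodendrocyte, immune and hepatocyte markers reached that level in 3 libraries, and 1 of 4 neuronal markers, SYT1, did.

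Levels are given as FPKM, fragments per kilobase of gene scaled to a size set for each library. Changes are log2(FPKM + 1) in the TNF-α group minus the NC group. Recovered from the values, the scaling size was 0.925 to 0.959 of the reads in genes in the NC libraries and TNF-α replicate 1. In TNF-α replicates 2 and 3 it was 0.693 and 0.759, so scaling by reads in genes would lower their FPKM more than that of the other libraries. Genes that reached an FPKM of 1 in 3 or more libraries were tested, and 21 of the 36 did. None of the 21 passed an adjusted p of 0.05, against 1.01% of the 12136 genes tested (0.717% higher and 0.297% lower). Without adjustment, p was under 0.05 for MFSD2A and LRP1, 2 of the 21, against a background of 24.2%. The median log2 fold change of the 21 was 0.03, beside 0.04 over all genes tested, with 11 genes higher and 10 lower. The libraries of the groups did not overlap for 6 of the 21 (28.6%, background 30.1%). MFSD2A and OSBPL2 were the ones higher in all 3 TNF-α libraries (background 14.8%), and ABCC4, OSBPL6, ABCA2 and LRP1 were the ones lower (background 15.3%). In a bulk library, fewer cells with a transcript and less of it per cell cannot be told apart.

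**Figure D1:**
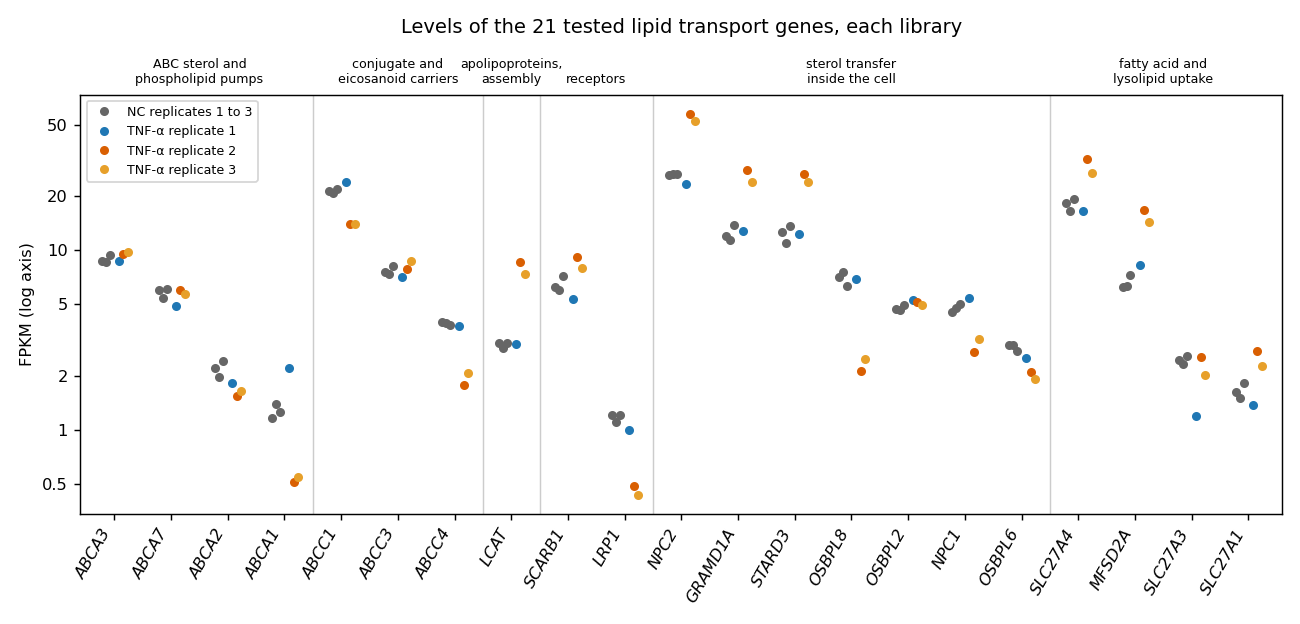
FPKM of the 21 tested genes (log axis) in each of the 6 libraries, grouped by role and ordered by mean level within a role. Grey points are the 3 NC libraries, and in 10 genes TNF-α replicate 1 (blue) lies on the other side of the NC mean from TNF-α replicates 2 and 3 (orange and yellow).

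The TNF-α libraries differed among themselves. TNF-α replicate 1 went in the opposite direction to both replicates 2 and 3 in 10 of the 21 (47.6%, beside 46.1% over all genes tested). A log2 ratio to the NC mean of at least 0.5 in size was reached by 1 gene in TNF-α replicate 1 (4.76%, beside 6.41% of all genes), by 12 in the second replicate (57.1%, beside 61.7%) and by 11 in the third (52.4%, beside 55.3%). Without TNF-α replicate 1, 16 of the 21 passed the threshold, 8 higher and 8 lower, where 79.4% of all genes did (42.6% higher and 36.8% lower). Without replicates 2 and 3, which leaves a lone TNF-α library that is assumed to vary like the NC libraries, 1 passed, SLC27A3, which was lower (background 6.03%, and 2.33% lower). The composition of replicates 2 and 3 given above moved with these values, and its part in each gene's change was not tested.

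**Figure D2:**
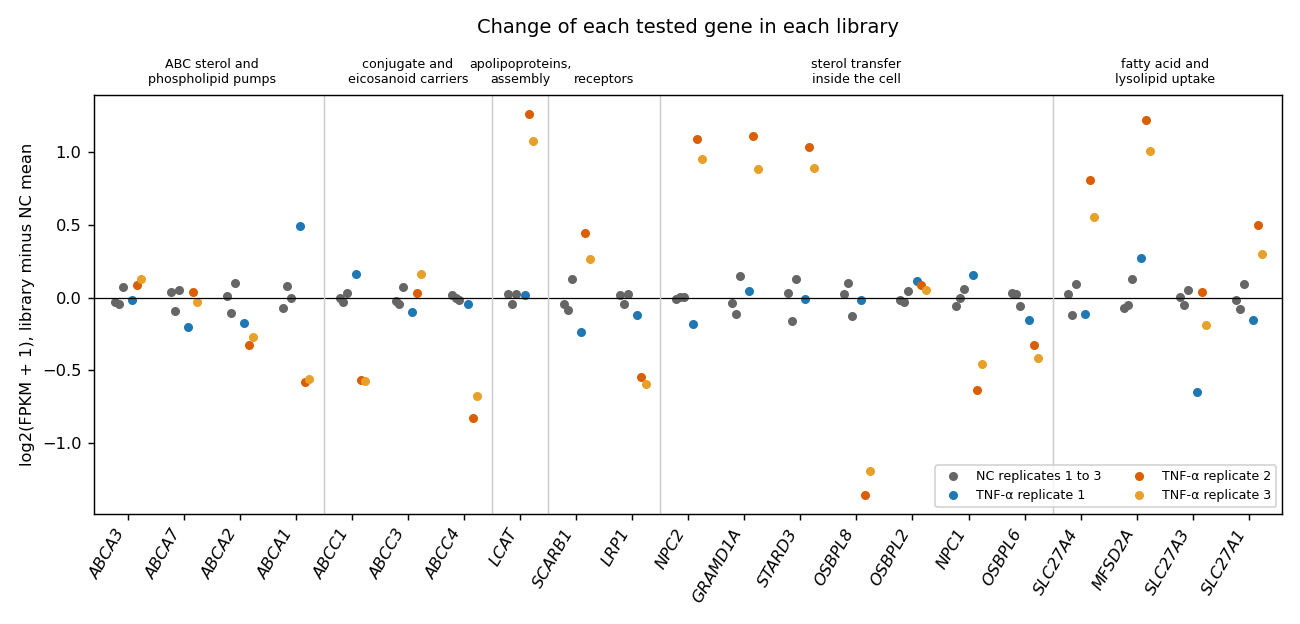
Log2(FPKM + 1) of each library minus the NC mean for the 21 tested genes, in the same order and colors. TNF-α replicates 2 and 3 lie together, from 1.27 above for LCAT to 1.36 below for OSBPL8 in replicate 2, and TNF-α replicate 1 (blue) lies within 0.3 of the NC mean except for ABCA1 and SLC27A3.

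Among the ATP-driven pumps, ABCA1, which exports cholesterol and phospholipid to apolipoprotein A-I, was low in all libraries. Its FPKM was 1.16, 1.40 and 1.27 in the NC group and 2.20, 0.517 and 0.544 in the TNF-α group, given here and below in the order of replicates 1 to 3 (476, 521 and 462 reads against 803, 152 and 150). TNF-α replicate 1 was the highest of the 6 libraries and TNF-α replicates 2 and 3 the lowest, so the groups overlapped. The log2 fold change was -0.22 ± 0.30 (SE, adjusted p = 0.585). It was 0.49 without TNF-α replicates 2 and 3 (adjusted p = 0.0863) and -0.57 without TNF-α replicate 1 (adjusted p = 0.00186). ABCA1 lies on chromosome 9 (GRCh38, 104781002 to 104928237 in GENCODE, minus strand). The 250 bases before its start in RefSeq, which lies further downstream (GRCh38.p14, chr9:104928156-104928405, minus strand) are shown because they hold a liver X receptor type element, in capitals, at -69 to -54 from the start.
ABCA1: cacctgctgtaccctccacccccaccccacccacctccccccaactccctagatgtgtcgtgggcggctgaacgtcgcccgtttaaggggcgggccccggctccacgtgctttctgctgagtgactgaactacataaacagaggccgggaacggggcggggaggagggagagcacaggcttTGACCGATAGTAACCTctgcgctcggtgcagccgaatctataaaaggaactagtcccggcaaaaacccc
On the opposite strand the capitals read as the half-site AGGTTA, 4 bases and the half-site CGGTCA. That pairing was searched after the window was seen, and ABCA1 was the 1 window of 35116 that held it. The pairing written down earlier, AGGTCA or AGGTTA on both sides of 4 bases, was in 0.0399% of all windows and in none of the 34 windows of the 24 listed genes that have one. A match to letters is a description and says nothing of receptor binding in these cells.

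ABCA3, which loads phospholipid into lamellar bodies, had the highest level of this role. Its FPKM was 8.70, 8.62 and 9.43 in the NC group and 8.77, 9.52 and 9.83 in the TNF-α group, and the groups overlapped. The difference was 0.06 on the log2 scale with a 95% interval from -0.22 to 0.35 (adjusted p = 0.674). ABCA2 and ABCA7, described here after their values were seen, were at 2.21 ± 0.229 and 5.82 ± 0.372 (SD, n = 3) in the NC group. ABCA2, a lysosomal and endosomal member of the family, was at 1.84, 1.55 and 1.65 in the TNF-α libraries, each below the lowest NC library, which had 1.97, with a log2 fold change of -0.26 ± 0.12 (SE, adjusted p = 0.196). ABCA7, a phospholipid exporter, was at 4.93, 5.99 and 5.68 in the TNF-α libraries, the first of them below the NC range and the others inside it, and differed by -0.06 (95% interval -0.37 to 0.24). None of the pumps that stayed below the filter exceeded an FPKM of 0.359. ABCG1, the partner of ABCA1 in loading high-density lipoprotein, had 2 reads in a single library, NC replicate 3, and 0 elsewhere, where 3 reads would be an FPKM of 0.0136 to 0.0202. ABCG4, its close relative, had 0 to 8 reads. ABCA5 and ABCA8 had 50 to 152 and 21 to 95 reads, and for both the lowest values were those of TNF-α replicates 2 and 3.

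ABCC1, which exports glutathione conjugates and leukotriene C4, was among the 5 most highly expressed genes of the set. Its FPKM was 21.3, 20.9 and 21.9 in the NC group and 24.0, 14.1 and 14.0 in the TNF-α group. TNF-α replicate 1 was above and replicates 2 and 3 were below all NC libraries, and the log2 fold change was -0.33 ± 0.23 (SE, adjusted p = 0.290). ABCC4, an exporter of prostaglandins and cyclic nucleotides, had 3.99, 3.93 and 3.86 in the NC group and 3.78, 1.77 and 2.08 in the TNF-α group. All 3 TNF-α libraries were below the NC libraries, replicate 1 by 0.04 from the NC mean on the log2 scale, and the log2 fold change was -0.52 ± 0.22 (SE, adjusted p = 0.195). Corrected for GC content and length it was -0.13 (adjusted p = 0.305). ABCC3, a carrier of bile salts and glucuronides, had 7.55, 7.42 and 8.17 in the NC group and 7.12, 7.89 and 8.76 in the TNF-α group. The ABCC3 groups overlapped and differed by 0.03 (95% interval -0.28 to 0.34, adjusted p = 0.851). SLCO2A1, the prostaglandin uptake carrier, was not tested: it had 41 to 85 reads in the NC group and 26 to 30 in the TNF-α group, an FPKM of 0.127 to 0.269 against 0.0949 to 0.121.

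The 5 apolipoproteins of the set, APOA1, APOB, APOC1, APOD and APOE, were all below the filter. APOB had 0 reads in all 6 libraries, where 3 reads would be an FPKM of 0.0056 to 0.00833. APOD had 2 reads in 1 library and 0 in the other 5, and APOA1 had 0 to 11. APOE, the main apolipoprotein of brain, had an FPKM of 0.0758, 0.278 and 0.327 in the NC group and 0.185, 1.41 and 0.414 in the TNF-α group. The single library above 1 rested on 80 reads in TNF-α replicate 2, and the groups overlapped. APOC1 was at 0.180, 0 and 0.177 in the NC group and 0.202, 0.188 and 0.703 in the TNF-α group, from 0 to 21 reads a library. These APOC1 groups did not overlap in FPKM, but their reads did, at 8, 0 and 7 in the NC group and 8, 6 and 21 in the TNF-α group. Of the exon bases of APOC1, 43.2% are shared with AC011481.3 on the same strand, and how reads in the shared bases were assigned was not tested. MTTP, which lipidates apolipoprotein B, had at most 16 reads, and PLTP, which moves phospholipid between lipoproteins, had 10 to 33.

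LCAT, which esterifies cholesterol on lipoproteins, was the 1 gene of this role above the filter. Its FPKM was 3.05, 2.86 and 3.05 in the NC group and 3.02, 8.58 and 7.42 in the TNF-α group. TNF-α replicate 1 lay inside the NC range and replicates 2 and 3 were above it, with a log2 fold change of 0.79 ± 0.33 (SE, adjusted p = 0.195) that was 0.01 without replicates 2 and 3. LCAT shares 12.8% of its exon bases with SLC12A4.

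**Figure D3:**
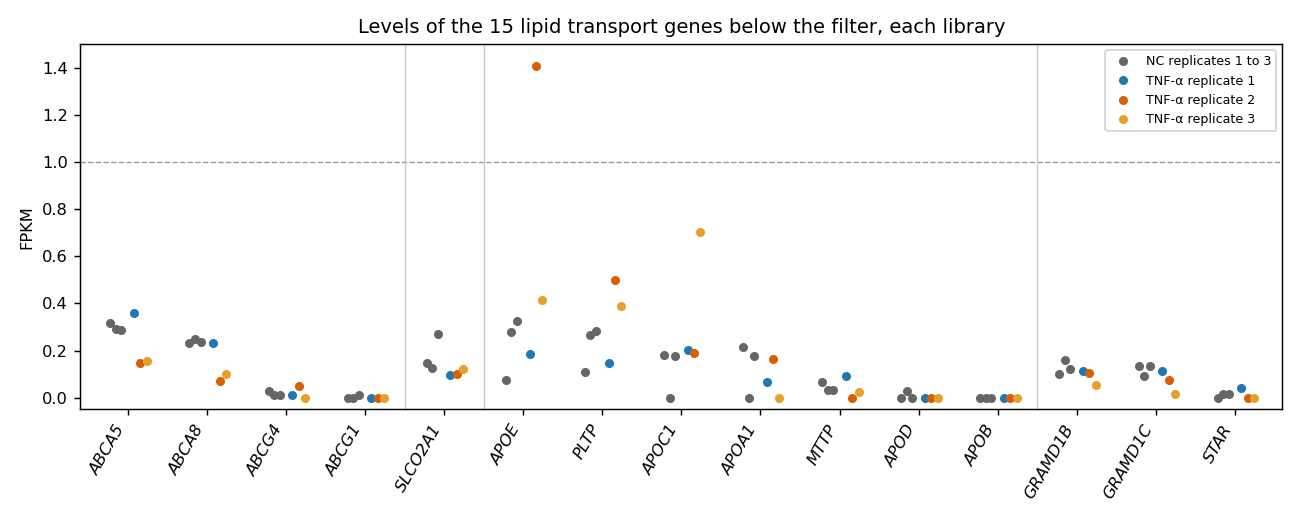
FPKM of the 15 genes below the filter in each of the 6 libraries on a linear axis, with the filter level of 1 as a dashed line. APOE in TNF-α replicate 2, at 1.41, is the 1 point above the line, and APOB is at 0 in all 6 libraries.

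Both lipoprotein receptors were expressed. SCARB1, the high-density lipoprotein receptor, had an FPKM of 6.22, 6.04 and 7.16 in the NC group and 5.34, 9.13 and 7.97 in the TNF-α group. TNF-α replicate 1 was below and replicates 2 and 3 were above all NC libraries, and the log2 fold change was 0.16 ± 0.20 (SE, adjusted p = 0.545). LRP1, an endocytic receptor for apolipoprotein E particles, had 1.20, 1.11 and 1.21 in the NC group and 1.00, 0.487 and 0.437 in the TNF-α group. The LRP1 groups did not overlap, and the log2 fold change was -0.42 ± 0.16 (SE, unadjusted p = 0.0384, adjusted p = 0.195 in the limma fit). Its merged exons were also the longest of the 21, at 20.8 kb, and after correcting for GC content and transcript length the value was 0.16 (adjusted p = 0.359).

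Sterol transfer inside the cell held the gene with the highest mean level of the set, ahead of SLC27A4 and ABCC1 of other roles. NPC2, the soluble lysosomal cholesterol-binding protein, ranked first by mean FPKM. Its FPKM was 26.4, 26.6 and 26.6 in the NC group and 23.3, 57.6 and 52.5 in the TNF-α group. TNF-α replicate 1 was below every NC library and replicates 2 and 3 were far above, and the log2 fold change was 0.62 ± 0.34 (SE, adjusted p = 0.218). NPC1, the membrane protein that receives cholesterol from NPC2, had 4.54, 4.76 and 5.00 in the NC group and 5.43, 2.70 and 3.19 in the TNF-α group. For NPC1 the order was the reverse of that for NPC2, with TNF-α replicate 1 highest and replicates 2 and 3 lowest, and the log2 fold change was -0.31 ± 0.22 (SE, adjusted p = 0.297). Exons of ISCA2 and MIR4709 share 6.37% of the bases of NPC2, and exons of RMC1 share 5.98% of those of NPC1.

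GRAMD1A, which carries plasma membrane cholesterol to the endoplasmic reticulum, had an FPKM of 12.1, 11.4 and 13.9 in the NC group and 12.9, 28 and 23.8 in the TNF-α group. TNF-α replicate 1 lay inside the NC range, and the fitted change was 0.68 ± 0.29 (SE, adjusted p = 0.195). GRAMD1B and GRAMD1C, of the same family, were far lower, at an FPKM of at most 0.158 and 0.135. STARD3, a late endosomal protein that tethers the endoplasmic reticulum and transfers cholesterol, had 12.7, 11 and 13.7 in the NC group and 12.3, 26.5 and 23.9 in the TNF-α group. Its groups overlapped through TNF-α replicate 1, and the log2 fold change was 0.64 ± 0.29 (SE, adjusted p = 0.195) with all libraries and -0.01 without TNF-α replicates 2 and 3. STAR, the mitochondrial protein of the same family that starts steroid synthesis, had at most 5 reads. STARD3 was the 1 listed gene with a match to the NF-kB motifs searched on both strands (GGAATTTCC, GGGATTTCC, GGGACTTTC and GGGGATTCC), of which at least 1 was in 1.52% of all windows. The 250 bases before its RefSeq start (GRCh38.p14, chr17:39636894-39637143, plus strand) are shown with the match, GGAATTTCC on the opposite strand at -232 to -224, in capitals, a motif in 0.461% of all windows.
STARD3: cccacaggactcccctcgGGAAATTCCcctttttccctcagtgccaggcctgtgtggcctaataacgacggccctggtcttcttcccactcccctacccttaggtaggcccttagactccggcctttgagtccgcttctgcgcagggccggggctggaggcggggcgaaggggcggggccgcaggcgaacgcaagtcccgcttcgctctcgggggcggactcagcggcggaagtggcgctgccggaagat
The SREBP motif TCACCCCAC, in 0.430% of all windows, was in none of the 34 windows.

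OSBPL8, an oxysterol-binding-related protein that exchanges phosphatidylserine at contacts of the endoplasmic reticulum and plasma membrane, had the largest fitted change in size of the 21. Its FPKM was 7.14, 7.56 and 6.31 in the NC group and 6.89, 2.12 and 2.50 in the TNF-α group. TNF-α replicate 1 lay inside the NC range, and the log2 fold change was -0.86 ± 0.36 (SE, adjusted p = 0.195), or -0.02 without replicates 2 and 3. OSBPL6, of the same family, had 2.98, 2.97 and 2.75 in the NC group and 2.51, 2.12 and 1.93 in the TNF-α group. All 3 TNF-α libraries of OSBPL6 were below the NC libraries (log2 fold change -0.30 ± 0.12 SE, adjusted p = 0.195), while the value corrected for GC content and length was 0.22. OSBPL2, described after its values were seen, was at 4.71, 4.67 and 4.98 in the NC group and 5.28, 5.14 and 4.99 in the TNF-α group. The OSBPL2 groups were separated by less than 0.1 FPKM, and they differed by 0.08 on the log2 scale (95% interval -0.18 to 0.35, adjusted p = 0.551).

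In fatty acid and lysolipid uptake, MFSD2A, the carrier of lysophosphatidylcholine with docosahexaenoic acid, was the gene with the smallest unadjusted p. Its FPKM was 6.27, 6.35 and 7.33 in the NC group and 8.23, 16.8 and 14.3 in the TNF-α group, from 835 to 1744 reads. All 3 TNF-α libraries were above the NC libraries, with log2 ratios to the NC mean of 0.27, 1.22 and 1.01. The log2 fold change was 0.83 ± 0.26 (SE, unadjusted p = 0.0166, adjusted p = 0.195 in the limma fit). It was 0.47 after the GC content and length correction (adjusted p = 0.0916) and 0.27 without TNF-α replicates 2 and 3 (adjusted p = 0.205), so its direction held and the threshold was not passed in either. MFSD2A lies on chromosome 1 (GRCh38, 39955112 to 39969968 in GENCODE, plus strand). The 250 bases before its start in RefSeq, which lies further downstream (GRCh38.p14, chr1:39954895-39955144, plus strand) are shown because it was higher in all 3 TNF-α libraries, and they held none of the motifs searched, so no base is in capitals.
MFSD2A: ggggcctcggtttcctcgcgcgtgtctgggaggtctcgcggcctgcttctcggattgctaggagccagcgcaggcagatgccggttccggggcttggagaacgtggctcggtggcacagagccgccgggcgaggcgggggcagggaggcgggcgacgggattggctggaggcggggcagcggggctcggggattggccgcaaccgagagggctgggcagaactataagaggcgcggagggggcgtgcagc

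SLC27A4, a fatty acid transport protein with acyl-CoA synthetase activity, had an FPKM of 18.3, 16.5 and 19.2 in the NC group and 16.6, 32.2 and 26.9 in the TNF-α group. TNF-α replicate 1 lay inside the NC range, and the log2 fold change was 0.42 ± 0.25 (SE, adjusted p = 0.242). SLC27A1, of the same family, had 1.62, 1.51 and 1.83 in the NC group and 1.38, 2.74 and 2.27 in the TNF-α group. TNF-α replicate 1 was the lowest of the 6 and replicates 2 and 3 were the highest, with a log2 fold change of 0.21 ± 0.19 (SE, adjusted p = 0.398). SLC27A3, described after its values were seen, had 2.45, 2.33 and 2.57 in the NC group and 1.19, 2.55 and 2.03 in the TNF-α group. Here TNF-α replicate 1 was the library that stood apart, with 210 reads against 418 to 485 in the NC libraries. The SLC27A3 log2 fold change was -0.27 ± 0.19 (SE, adjusted p = 0.311) with all libraries, -0.48 with the GC content and length correction (adjusted p = 0.0981) and -0.65 without TNF-α replicates 2 and 3 (adjusted p = 0.0226). SLC27A3 shares 8.32% of its exon bases with INTS3.

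The order of levels of the tested genes was much the same in the NC libraries and TNF-α replicate 1, and shifted in TNF-α replicates 2 and 3. OSBPL8 ranked 8, 7 and 10 in the NC libraries and 16 and 14 in TNF-α replicates 2 and 3. LCAT ranked 15, 16 and 15 in the NC libraries and 9 and 10 in TNF-α replicates 2 and 3. NPC2, SLC27A4, ABCC1, GRAMD1A and STARD3 had a mean FPKM of at least 10. NPC2 ranked first in 5 of the libraries and ABCC1 in TNF-α replicate 1. ABCC1 was second in the 3 NC libraries and the sixth in TNF-α replicates 2 and 3. GRAMD1A and STARD3, neighbours in this order, changed places between libraries and did not differ beyond their spread, at 12.5 ± 1.29 and 12.4 ± 1.35 (SD, n = 3) in the NC group. The FPKM of all 36 genes summed to 157 to 171 in the NC group and to 160, 241 and 219 in TNF-α replicates 1 to 3. The smaller scaling size of TNF-α replicates 2 and 3 given above raises their sums, and its part in the rise was not tested. NPC2 held 15.6% to 17% of the sum in the NC group and 14.6%, 23.9% and 24.0% in the TNF-α libraries.

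The changes in TNF-α replicates 2 and 3 followed transcript length. Across the 21 genes, which are not independent replicates and share each library, Pearson's r between the log2 length of the longest transcript and the log2 ratio to the NC mean was 0.03, -0.81 and -0.83 in TNF-α replicates 1 to 3, beside 0.01, -0.33 and -0.34 over the 12131 tested genes with a value. For GC content, r over the 21 was -0.28, 0.47 and 0.45, beside -0.07, 0.43 and 0.41. The 21 had longer transcripts than the tested genes at large, with a median of 5527 bases against 3363. Of the 10 genes with merged exons of 8 kb or less, 8 were higher and 2 lower in the fit of all libraries, with a median ratio of 0.92 in TNF-α replicate 2. Of the 11 over 8 kb, 3 were higher and 8 lower, with a median ratio of -0.32 in that library. The same split was not made over all genes tested, so whether it is particular to this set was not tested. LCAT and NPC2, the shortest, and LRP1 and OSBPL6, the longest by transcript, lay at the ends of the length range. With that correction, 0 of the 21 passed the threshold (background 2.79%), and ABCA1, LRP1 and OSBPL6 turned from lower to higher. SLC27A4 and SLC27A1 turned from higher to lower under it, at -0.07 and -0.01. Values that kept their sign but moved closer to 0 included OSBPL8 at -0.37, ABCA2 at -0.12, LCAT at 0.14, GRAMD1A at 0.12, STARD3 at 0.27 and NPC2 at 0.34.

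**Figure D4:**
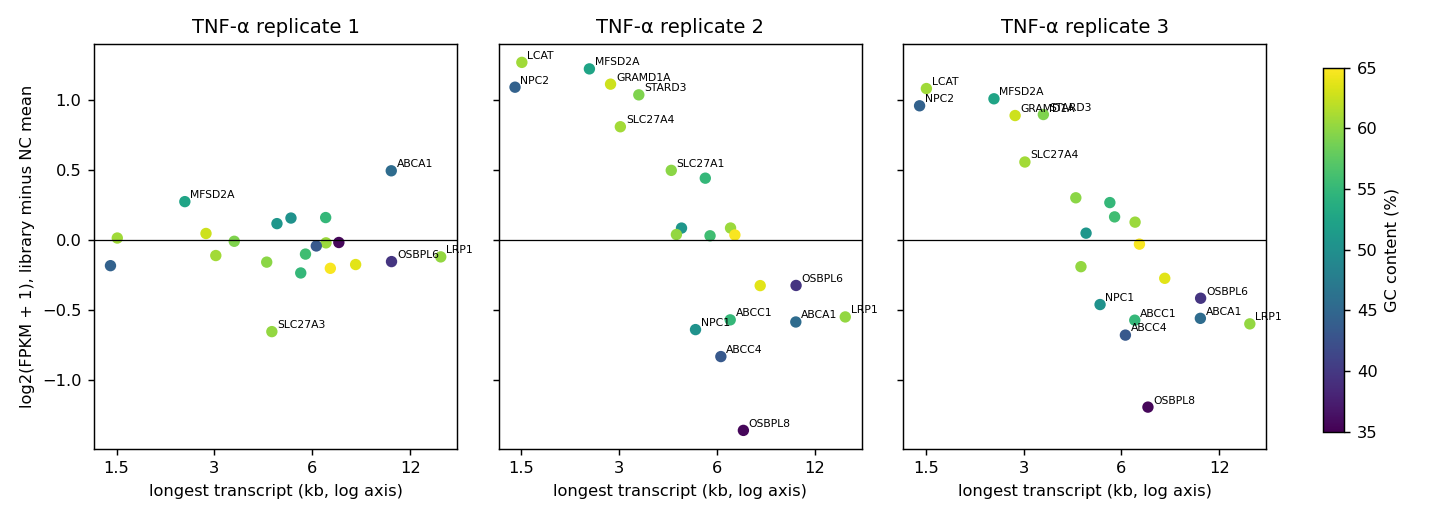
Log2(FPKM + 1) in each TNF-α library minus the NC mean against the length of the longest transcript (kb, log axis), 1 point per tested gene, colored by GC content. The points fall from short to long transcripts in TNF-α replicates 2 and 3 (r of -0.81 and -0.83) and show no such slope in TNF-α replicate 1 (r of 0.03).

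**Figure D5:**
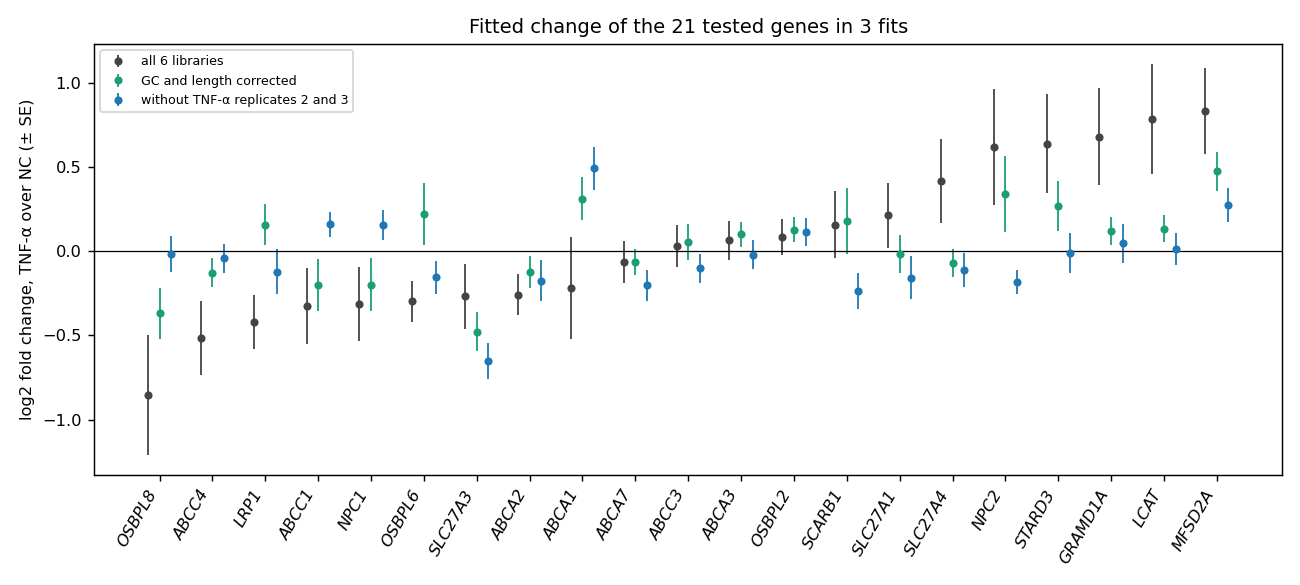
Fitted log2 fold change (TNF-α over NC, points) with its standard error (bars) for the 21 tested genes, with all 6 libraries, with the GC content and length correction, and without TNF-α replicates 2 and 3. MFSD2A, GRAMD1A, LCAT and OSBPL2 are above 0 in all 3 fits, and SLC27A3, OSBPL8, ABCC4, ABCA2 and ABCA7 are below 0 in all 3. The other genes change sign in at least 1.

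A further list of 105 genes covered other lipid transport genes and the liver X receptor axis, and 59 were tested, 25 higher and 34 lower, with a median log2 fold change of -0.24. Over all genes tested the median was 0.04, with 6432 higher and 5704 lower. With the GC content and length correction the median of the listed genes was -0.13, beside 0.00097 over all genes tested. The groups of the listed genes did not overlap for 26 of the 59 (44.1%, beside 30.1% of all genes tested, 14.8% higher and 15.3% lower). In TNF-α replicates 2 and 3 the median ratio of the 59 to the NC mean was -0.35 and -0.37, beside 0.08 and 0.05 over all genes tested, and it was -0.02 in replicate 1. The 1 gene of the 59 past the threshold (background 1.01%) was SLCO4A1, an organic anion carrier related to SLCO2A1, at 12, 11.5 and 14.3 FPKM in the NC group and 23.1, 30.0 and 27.9 in the TNF-α group. SLCO4A1 rose by 1.04 ± 0.16 (SE, adjusted p = 0.0498). Over 22 other settings its change lay between 0.56 and 1.14 and its adjusted p between 3.63e-05 and 0.368, so the direction held and the call did not. SLCO4A1 shares 8.54% of its exon bases with an antisense gene, and the sources used here do not give whether reads were counted by strand.

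Of 12 genes of the liver X receptor axis, 9 were tested, 4 higher and 5 lower, and 0 passed, where 1.01% of all genes did. NR1H2, which encodes liver X receptor β, had 28, 26.7 and 32.5 in the NC group and 32.4, 76.0 and 64.3 in the TNF-α group (log2 fold change 0.88, adjusted p = 0.195). NCOA1, a nuclear receptor coactivator, was lower in all 3 TNF-α libraries (-0.96, adjusted p = 0.195). RXRA, the partner receptor, was named after its values were seen: its FPKM was 5.21, 5.75 and 5.54 in the NC group and 3.36, 3.28 and 3.46 in the TNF-α group. Its 3 TNF-α libraries lay close together and below the NC libraries, with a log2 fold change of -0.57 ± 0.11 (SE, adjusted p = 0.0968). Over the 21 other settings in which it was tested, its change lay between -1.13 and -0.49 and its adjusted p between 0.000241 and 0.430, and it passed the threshold in 3 of them, among them the GC content and length correction (-0.63, adjusted p = 0.0250).

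Among the other lipid pumps, 6 of 19 were tested, 3 higher and 3 lower. ABCC2, a canalicular conjugate exporter, and ABCD3, a peroxisomal importer, were lower in all 3 TNF-α libraries, with log2 ratios of -0.27, -1.26 and -1.03 and of -0.38, -1.46 and -1.06 to the NC mean (adjusted p = 0.195 for both). Of 25 other apolipoproteins and receptors 9 were tested. CLU, which encodes apolipoprotein J and is named here after its values were seen, had 5.90, 5.53 and 5.83 in the NC group and 4.81, 12.1 and 10.1 in the TNF-α group (0.49, adjusted p = 0.256). SORT1, a sorting receptor, had 29.8, 29.4 and 30.0 in the NC group and 23.1, 14.5 and 13.5 in the TNF-α group (-0.80, adjusted p = 0.185). LRPAP1, the chaperone of LRP1, had 14.8, 14.4 and 16.8 in the NC group and 15.5, 35.5 and 30.6 in the TNF-α group (0.71, adjusted p = 0.195), with a ratio of 0.02 in TNF-α replicate 1 alone. Of 17 other genes of fatty acid, lysolipid and organic anion transport 7 were tested, 2 higher and 5 lower. DBI, the acyl-CoA-binding protein, was at 0.93 (adjusted p = 0.195), with -0.04 in TNF-α replicate 1 alone. Of 32 other oxysterol-binding, START-domain and contact-site genes 28 were tested, 12 higher and 16 lower. STARD10, a phospholipid transfer protein, had 1.60, 1.77 and 2.12 in the NC group and 3.46, 12.5 and 7.55 in the TNF-α group (1.5, adjusted p = 0.176), and 21.1% of its exon bases are shared with other genes. TSPO, a mitochondrial cholesterol-binding protein, was at 1.45 (adjusted p = 0.195), with 45.1, 44.9 and 56.6 in the NC group and 54.8, 231 and 190 in the TNF-α group.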

How the data were processed

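Poly(A)-selected RNA of 6 U251 libraries was sequenced. The submitters' processing notes name HISAT2 2.0.5, StringTie 1.3.3b, featureCounts 1.5.0, DESeq2, edgeR and GATK 3.7. The authors deposited FPKM per library, unpooled, and a gene length; 6 further per-sample columns were not used here. All 58735 genes matched GENCODE release 29 (Ensembl 94, GRCh38). Dividing FPKM times length by the smallest step of a library gave whole reads for 100% of values (tolerance 0.001). Limits based on 3 reads cover counting error only.

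Log2(FPKM + 1), which understates changes of low genes, was fitted with limma 3.58.1 in R 4.3.3 (eBayes with trend, two-sided) on all 12136 genes that reached an FPKM of 1 in 3 libraries, with Benjamini-Hochberg adjustment and a threshold of 0.05. The script was tested on simulated data. The GC content and length correction used natural splines (5 degrees of freedom) of the longest transcript. The genes and lists were chosen with earlier results of these data known. Genes given in full were those past the threshold, the 12 with the largest change, the 5 with the highest mean, those with TNF-α replicate 1 opposite to replicates 2 and 3, and 2 per role of the further list. Other genes named were chosen after their values were seen. Promoter windows (250 bases before to 50 after a start) were from RefSeq, and 12 of the 36 genes had none. Tables and plots were made with Python 3.11.15, numpy 2.4.6, pandas 2.3.3 and matplotlib 3.10.9. Alternatives were 3 filters, 2 pseudocounts, TPM, quantile normalization, median centring, 2 other eBayes settings, limma-voom on the reads, protein-coding genes alone, the corrections, a replicate block and fits that leave out libraries.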

Additional observations from a re-analysis of the deposited data

How the results depend on the processing

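The results rest on 3 libraries a group, of which TNF-α replicates 2 and 3 differ in composition, and no alternative fit separates treatment from composition. Over 22 alternatives, 7 of the 21 tested genes kept their direction in each fit that held them. With TPM set aside, under which the median of all genes also moved, 8 did so. Of the 7, ABCA2, ABCC4, LCAT and SLC27A3 fell out under the filter of a mean FPKM of at least 5. The number of tested genes of the set past the threshold was 0 in 20 of them, 1 without TNF-α replicates 2 and 3, and ranged from 0 to 16 over the fits that leave out 1 library, with 16 without TNF-α replicate 1.

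The number of all genes past the threshold, 123, was 58 with no filter, 65 with a mean FPKM of at least 5, 58 with TPM, 185 with quantile normalization, 338 with the GC content and length correction, 109 with limma-voom on the recovered reads, 732 without TNF-α replicates 2 and 3, and 10 to 9630 with 1 library left out, the highest without TNF-α replicate 1. Deviations from the group means correlated at -0.01, -0.18 and 0.12 between same-numbered libraries, and at -0.16 to 0.18 between differently numbered ones. Since TNF-α replicate 1 stood apart from replicates 2 and 3, these values cannot settle whether replicate numbers pair the samples. With the replicate block 24 genes passed, and 50 with the block and the correction, with 0 genes of the set in both.

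The median log2 fold change of the tested genes of the set was 0.03. Other filters changed which genes entered: it was -0.057 with a filter at 0.1, which let in lower genes, and 0.16 over the 11 with a mean of at least 5. It was -0.45 with TPM, -0.032 with limma-voom and 0.10 with the correction (also with the block). Without TNF-α replicates 2 and 3 it was -0.042, and with 1 library left out it was -0.035 to 0.069. TPM divides each library by the sum of its FPKM, so the scaling sizes given above cancel. It shifted the median of all genes to -0.42. With TPM, ABCA3 was at -0.42, ABCC3 -0.45, SLC27A4 -0.067, SLC27A1 -0.17, OSBPL2 -0.38 and SCARB1 -0.31. Signs also turned for ABCA1 with quantile normalization (0.047), for ABCC3 with median centring (-0.015), with limma-voom (-0.032) and without TNF-α replicate 3 (-0.035), and for ABCA7 without TNF-α replicate 1 (0.0035, where leaving out 1 library at a time gave -0.12 to 0.0035). With the correction, with or without the replicate block, ABCA1 was at 0.31, SLC27A4 -0.068, SLC27A1 -0.015, OSBPL6 0.22 and LRP1 0.16. Without TNF-α replicates 2 and 3, ABCA3 was at -0.020, ABCA1 0.49, ABCC1 0.16, ABCC3 -0.10, SLC27A4 -0.11, SLC27A1 -0.16, NPC2 -0.18, STARD3 -0.0088, NPC1 0.16, SCARB1 -0.23, CLU -0.22 and DBI -0.041. The cause of these turns was not tested.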
